A study of Rattus norvegicus with 12 samples.

Results

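Keratins are the intermediate filament proteins of epithelial cells. The keratin rows of the expression table were taken by name, as Krt followed by a number and at most 1 letter, which gave 48 of 23096 rows with 47 different names. Each row was compared between lungs with bronchi from male Sprague Dawley rats (labelled as aged 8 weeks and 300 g) given 2,3-butanedione (diacetyl, DA) into the trachea and lungs of control rats given aseptic distilled water by the same route. DA, a butter flavouring chemical tied to bronchiolitis obliterans, was given at 125 mg/kg daily for 7 days, and tissue was collected 24 h after the last dose. Each group had 6 libraries, with a total of 13723207 to 16271842 read counts in each. Nothing in the labels says more of the separate origin of the libraries than their numbering, so p-values measure the spread between these libraries.

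Type I and type II keratins pair one to one, and the paired chains assemble into filaments that anchor at desmosomes and hemidesmosomes. Simple epithelia, which include the alveolar lining and the luminal cells of airways, use Krt8 and Krt18 with Krt7 and Krt19. Basal cells, the stem cells of the conducting airway, carry Krt5 with Krt14, and Krt15 and Krt17 belong to basal and injured epithelium. Squamous keratins such as Krt1, Krt10, Krt4 and Krt13 appear in stratified epithelium of skin, mouth and oesophagus, and airway epithelium can take on some of them after injury. Hair keratins and those of the inner root sheath are made in hair follicles.

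The labels give all rats as male, but Y-linked reads were found in 6 of the 12 libraries. Summed counts of Kdm5d, Uty and Eif2s3y were 2185 to 2881 in DA replicates 1 to 4 and control replicates 1 and 2, and 0 in DA replicates 5 and 6 and control replicates 3 to 6. Libraries with such reads thus made up 4 of the DA group and 2 of the control group, so each keratin that passed the test is also given within these strata. DA replicate 4 stood apart in several keratins and in cell type markers, and keratin and Tp63 values that rest on it are given without it. Markers of alveolar cells were lower there. Its summed level of 8 alveolar type 2 genes was 10376 CPM (counts scaled to a common library size with TMM factors), the lowest of the DA libraries, which reached 27301 CPM, against 23146 to 27086 CPM in control libraries.

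Of the 48 keratin rows, 14 passed the filter on low counts, and these were tested with edgeR's quasi-likelihood test, adjusted over 14517 genes (Benjamini-Hochberg, threshold 0.05). The simple keratin pair Krt8 and Krt18 and the row named Krt15 rose in DA lungs, by 1.45-fold to 1.66-fold, and no keratin was called lower. Krt7, the simple keratin with the highest level per length, was not called. The share of all tested genes called higher was 8.45% and the share called lower was 7.51%, so 3 of 14 and 0 of 14 keratins stand beside these. At an unadjusted p under 0.05, 4 keratins were higher and 2 were lower by edgeR. DESeq2 called 4 higher and 0 lower, and limma on log2(FPKM + 0.5) called 3 higher and 0 lower. Over all genes, DESeq2 called 1888 of 14436 higher and 1645 lower, and limma called 961 of 14517 higher and 995 lower. No share of all genes at an unadjusted p is given. Counts at that threshold, here and for the lists below, are a description only. The median log2 fold change was -0.02 over the 14 keratins and 0.03 over all tested genes. Values of the groups did not overlap for Krt8 and Krt15, both higher in DA, against 3.11% of all tested genes that were higher without overlap. No keratin was lower without overlap, against 2.93% of all tested genes, so 2 of 14 stood apart in either direction, against 6.04%. Calls in either direction covered 16% of all tested genes. By class, the tested rows numbered 4 of 5 simple, 1 of 3 basal, 8 of 16 squamous and 1 of 23 hair keratins, and the single unclassified row, Krt222, was below the filter.

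**Figure D1:**
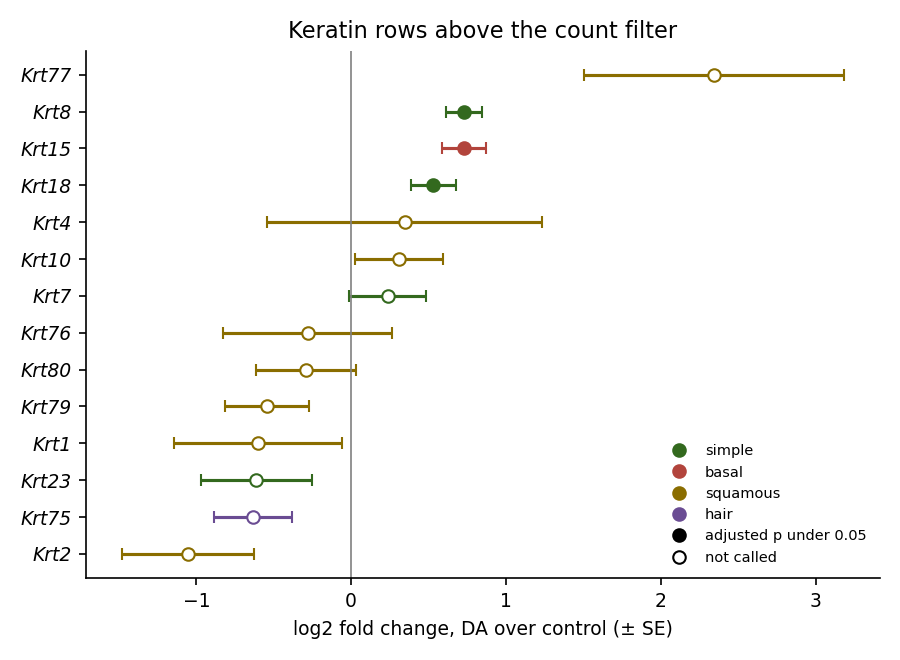
Log2 fold change (x axis, DA over control, bars show the standard error) of the 14 keratin rows above the count filter, coloured by class, filled where the adjusted p of edgeR was under 0.05. Krt8, Krt15 and Krt18 are filled and lie right of 0, while Krt77 has the largest value, 2.34, with an error of 0.84.

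Per gene length, the 3 highest keratins of both groups were simple ones. Krt7 stood at 76.1 ± 22.9 FPKM in DA and 64.6 ± 13.8 FPKM in control libraries, Krt8 at 72.8 ± 8.37 and 43.6 ± 7.67 FPKM, and Krt18 at 60.6 ± 11.8 and 41.6 ± 7.04 FPKM (SD, n = 6 each). In both groups the intervals of mean ± SD of neighbours in this order overlapped. Krt7 and Krt18 are not neighbours, and Krt7 was above Krt18 in all 6 control libraries. Krt15 (21.7 and 13.0 FPKM in DA and control), Krt80 (15.4 and 18.8 FPKM) and Krt79 (12.7 and 18.4 FPKM) formed a second tier. All other keratins averaged at most 2.24 FPKM over the 12 libraries, a value reached by Krt5 through 1 library. These levels rest on the gene lengths in the deposited table, whose derivation is not given. For 1128 of 16695 genes compared, that length was greater than the whole RefSeq gene (GRCr8), Krt10, Krt15, Krt17 and Krt86 among them, so levels between genes are approximate. The place of Krt15 depends on its length, 15888 bases against a median of 2745.5 over keratin rows. By reads it was first, with 49028 over the 12 libraries, against 41066 for Krt7.

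Krt8 is the type II keratin of simple epithelium, and in mouse lung its protein marks alveolar cells in transition after injury. The row (ENSRNOG00000009779) read 291, 230, 319, 294, 273 and 309 CPM in DA replicates 1 to 6, against 194, 218, 151, 150, 169 and 152 CPM in control replicates 1 to 6. Every DA library lay above every control library, with DA replicate 2 and control replicate 2 the closest. Krt8 rose to 286 ± 31.5 CPM in DA, against 172 ± 28.2 CPM in control (SD, n = 6), a log2 fold change of 0.73 ± 0.12 (SE; edgeR adjusted p = 0.00445). Within the libraries with Y-linked reads, Krt8 averaged 283 CPM in DA and 206 CPM in control (log2 fold change 0.45, adjusted p = 0.517). Within those without, it averaged 291 CPM in DA and 156 CPM in control (log2 fold change 0.90, adjusted p = 0.00914). Krt8 was still called after any single library was dropped, and in a model that held a term for Y-linked reads.

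Krt18, the type I partner of Krt8, rose less evenly. Its row (ENSRNOG00000047393) read 82.7, 56.0, 105, 82.2, 92.0 and 83.7 CPM in DA replicates 1 to 6, against 69.8, 69.2, 55.3, 49.1, 51.8 and 52.0 CPM in control replicates 1 to 6. Only DA replicate 2 lay below some controls, and the other 5 DA libraries were above all of them. The mean was 83.6 ± 16.1 CPM in DA and 57.8 ± 9.22 CPM in control (SD, n = 6), a log2 fold change of 0.53 ± 0.14 (SE; edgeR adjusted p = 0.0277). Dropping DA replicate 1 or 3 ended the call, with an adjusted p of 0.0547 in both cases. So did dropping control replicate 3, 4, 5 or 6, with adjusted p-values of 0.0597, 0.0649, 0.0589 and 0.0594, and so did a model term for Y-linked reads (adjusted p = 0.06). Where Y-linked reads were present Krt18 had a log2 fold change of 0.23 (adjusted p = 0.778), and where they were absent one of 0.75 (adjusted p = 0.0103). RefSeq names 7 pseudogenes or like genes of Krt18 and 1 of Krt8. How reads were divided among such copies is not given, so both rows are uncertain to that extent.

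The ratio of Krt8 to Krt18, as FPKM over FPKM, was 1.04 to 1.44 in DA libraries and 0.957 to 1.15 in control libraries, so the ranges overlapped. Krt7, another type II keratin of simple and glandular epithelium, was not called with or without DA replicate 4. It read 278, 273, 298.9, 93.3, 298 and 264 CPM in DA replicates 1 to 6, against 257, 205, 245, 213, 230 and 128 CPM in control replicates 1 to 6. DA replicate 4 was the lowest of the 12 libraries, and the other 5 DA libraries were above all controls. The log2 fold change of Krt7 was 0.24 ± 0.25 (SE; edgeR adjusted p = 0.536), and 0.40 without DA replicate 4 (adjusted p = 0.0712). In DA replicate 4 there were 0.318 Krt7 reads per Krt8 read, against 0.853 to 1.19 in the remaining DA libraries, with 0.839 to 1.63 in control libraries. The summed levels of alveolar type 1 genes (2037 CPM) and type 2 genes were also lowest in that library. Their part in the low Krt7 was not tested. Because whole tissue was sequenced, fewer cells of a type and less RNA per cell cannot be told apart in any of these values.

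Krt23, a type I keratin of simple and glandular epithelium, was scarce, at 3.51, 5.90 and 7.92 CPM (lowest, median, highest) in DA and 3.77, 8.85 and 14.4 CPM in control libraries. All 6 DA values were below the control mean, yet the log2 fold change of -0.61 ± 0.36 was not called (edgeR adjusted p = 0.25). Krt20, a keratin of gut and urothelium, stayed below the filter with at most 9 reads in a library.

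**Figure D2:**
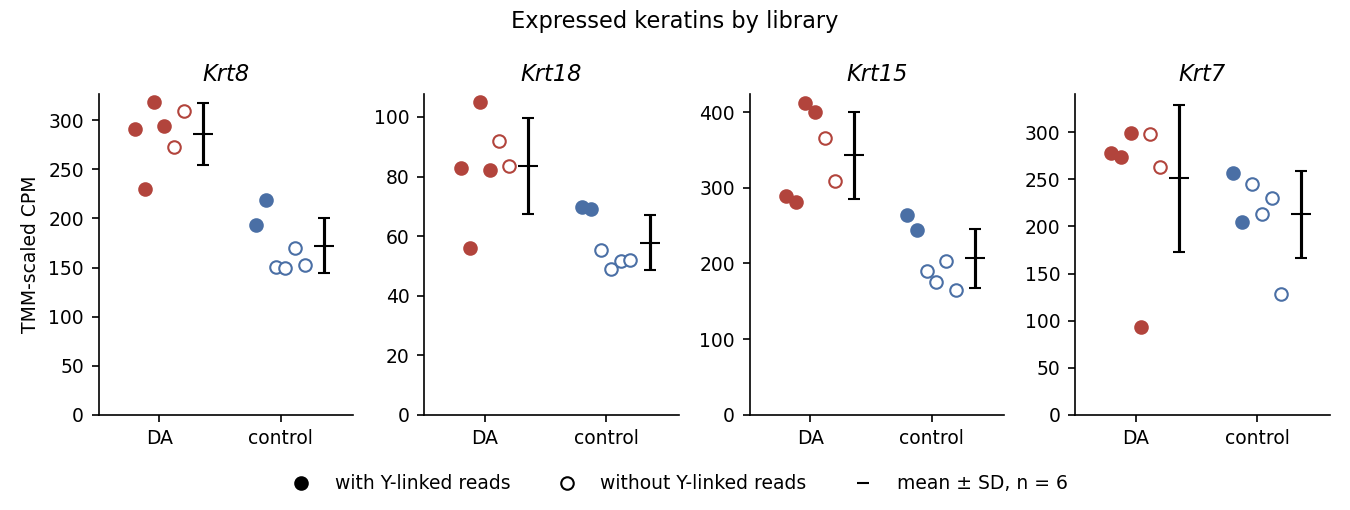
Levels of Krt8, Krt18, Krt15 and Krt7 (y axis, TMM-scaled CPM, from 0) in each DA and control library, filled where the library had Y-linked reads and open where it had none, with the mean and SD of 6. The DA points of Krt8 and Krt15 lie above all control points, and 1 DA point of Krt7, at 93.3 CPM, lies below all others.

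The promoters of the paired genes Krt8 and Krt18, which rose together, and of the basal keratin gene Krt5 are shown because these 3 genes carry the patterns described here. They run from 250 bases before to 50 bases after each gene's start in RefSeq (GRCr8, 5′ to 3′ on the gene's strand). Capitals mark matches, on either strand, to the GC box GGGCGG, the TATA box TATAAA or the AP-1 site TGANTCA.
Krt8 promoter, chr7:135010290-135010589, minus strand: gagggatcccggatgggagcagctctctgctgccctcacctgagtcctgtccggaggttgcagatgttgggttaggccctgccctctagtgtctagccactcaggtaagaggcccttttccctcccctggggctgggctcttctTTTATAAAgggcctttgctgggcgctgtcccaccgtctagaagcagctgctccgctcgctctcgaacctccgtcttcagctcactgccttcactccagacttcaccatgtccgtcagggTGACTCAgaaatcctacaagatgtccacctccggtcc
Krt18 promoter, chr7:135035918-135036217, plus strand: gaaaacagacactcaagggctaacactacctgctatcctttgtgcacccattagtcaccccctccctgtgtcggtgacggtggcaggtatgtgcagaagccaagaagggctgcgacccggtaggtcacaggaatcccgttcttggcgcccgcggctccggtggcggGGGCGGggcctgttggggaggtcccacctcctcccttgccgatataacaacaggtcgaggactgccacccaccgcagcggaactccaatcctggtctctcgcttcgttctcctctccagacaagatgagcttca
Krt5 promoter, chr7:134730520-134730819, minus strand: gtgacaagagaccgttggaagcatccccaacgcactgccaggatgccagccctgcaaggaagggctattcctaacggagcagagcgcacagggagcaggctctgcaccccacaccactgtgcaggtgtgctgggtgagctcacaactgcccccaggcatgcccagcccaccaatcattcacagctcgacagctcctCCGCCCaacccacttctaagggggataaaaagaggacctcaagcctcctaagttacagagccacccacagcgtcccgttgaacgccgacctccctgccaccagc
The Krt8 window held 2 overlapping TATA box matches, 1 on each strand, and 1 AP-1 match, TGACTCA, from base 14 of the gene. The start in this table falls on an ATG, so that match lies downstream of it and not in upstream sequence. The Krt18 window held 1 GC box and neither of the other motifs. The Krt5 window held 1 GC box on the minus strand. Over 33469 promoter windows of this length, 33.1% held a GC box, 14.2% a TATA box and 7.33% an AP-1 match. Of 39 keratin promoters in the same RefSeq table, 15.4% held a GC box, 53.8% a TATA box and 5.13% an AP-1 match. Keratin genes are related by duplication, so these shares are a description, and a match is not evidence of binding. Dinucleotides CG numbered 10 in the Krt8 window, 17 in Krt18 and 10 in Krt5, with a median of 7 over all windows.

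Krt15, a type I keratin listed with the basal class, had the most reads of any keratin and rose in DA. Its row (ENSRNOG00000003899) read 289, 281, 412, 400, 366 and 309 CPM in DA replicates 1 to 6, against 264, 244, 190, 175, 204 and 165 CPM in control replicates 1 to 6. Every DA library exceeded every control library, narrowly for DA replicates 1 and 2. Krt15 averaged 343 ± 57.4 CPM in DA and 207 ± 39.2 CPM in control (SD, n = 6), a log2 fold change of 0.73 ± 0.14 (SE; edgeR adjusted p = 0.00878). Within the libraries with Y-linked reads the means were 346 CPM in DA and 254 CPM in control (log2 fold change 0.44, adjusted p = 0.566). Within those without, they were 338 CPM in DA and 184 CPM in control (log2 fold change 0.87, adjusted p = 0.0115). The call held without each single library. The basal label of this row is uncertain. Its length in the table, 15888 bases, is the longest of all keratin rows, against 7626 for the next, Krt86. In RefSeq the next protein-coding gene beside Krt15 is Krt19, a simple keratin with no row of that name in the table and not analysed here. Whether the Krt15 row takes up Krt19 reads was not tested.

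Krt5, which defines basal cells, was nearly absent outside 1 library, and Krt17 was low outside it. Krt5 had 1, 0, 0, 839, 2 and 0 reads in DA replicates 1 to 6, against 0, 2, 0, 0, 0 and 0 reads in control replicates 1 to 6. Krt17, a keratin of basal and wounded epithelium, had 18, 7, 7, 397, 7 and 22 reads in DA replicates 1 to 6, against 2, 3, 4, 4, 8 and 6 reads in control replicates 1 to 6. DA replicate 4 thus held 99.4% of all Krt5 reads and 81.9% of all Krt17 reads. For Krt17, DA replicates 1 and 6 were also above every control, while DA replicates 2, 3 and 5 lay within the control range. Neither row passed the count filter, which asks for reads in more libraries. Fitted with no filter, edgeR called both higher (adjusted p = 0.0463 for Krt5 and 0.0379 for Krt17). Without DA replicate 4 in that fit neither was called (adjusted p = 0.76 and 0.0845). A library at 0 reads allows up to 3, which is 0.184 to 0.219 CPM by library and covers counting error only. Krt14, the type I partner of Krt5, has no row of that name and was not analysed here.

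Genes of basal cells other than keratins were divided in DA replicate 4. Of 14 with reads, 7 had their highest DA value in that library and 5 their lowest, and the summed level of the list was 634.6 CPM there, the lowest of the 12 libraries. The other DA libraries had 891 to 1175 CPM, and control libraries 718 to 961 CPM. Bcam, the most abundant member, weighs heavily in that sum. It stood at 185 CPM in DA replicate 4, 399 to 611 CPM in the other DA libraries and 317 to 549 CPM in control libraries. Tp63, the transcription factor that defines basal cells, had 221 reads in DA replicate 4, against 7 to 28 in the remaining DA libraries and 1 to 15 among controls. Its log2 fold change of 2.65 was not called (edgeR adjusted p = 0.058). Without DA replicate 4 it was 0.95 (adjusted p = 0.212). Dropping DA replicate 2 or 5, which keeps DA replicate 4, gave a call (adjusted p of 0.0481 and 0.0484), as did DESeq2 on all libraries (adjusted p = 0.0116). A further 3 genes were picked after their values were seen. Fat2, a large cadherin, had 399 reads in DA replicate 4, Serpinb5, a serpin of squamous and basal epithelium, had 194, and Tfap2a, an AP-2 transcription factor, had 83. In each other library Fat2 had at most 56 reads, Serpinb5 at most 4 and Tfap2a at most 1. Ngfr, a neurotrophin receptor of basal cells, was at 95 reads there and at most 51 elsewhere, with a log2 fold change of 0.32 (edgeR adjusted p = 0.64). The water channel gene Aqp3 had 222 reads there, below the highest control at 346 (log2 fold change -0.11, adjusted p = 0.934). Of 13 tested basal cell genes other than keratins, 1 was called higher and 0 were called lower, beside 8.45% and 7.51% of all tested genes. The median log2 fold change of the 13 was 0.22. At an unadjusted p under 0.05, 5 were higher and 0 were lower, and DESeq2 called 3 and limma 1 higher. Without DA replicate 4 edgeR again called 1 higher and 0 lower, with 3 higher and 1 lower at an unadjusted p under 0.05.

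**Figure D3:**
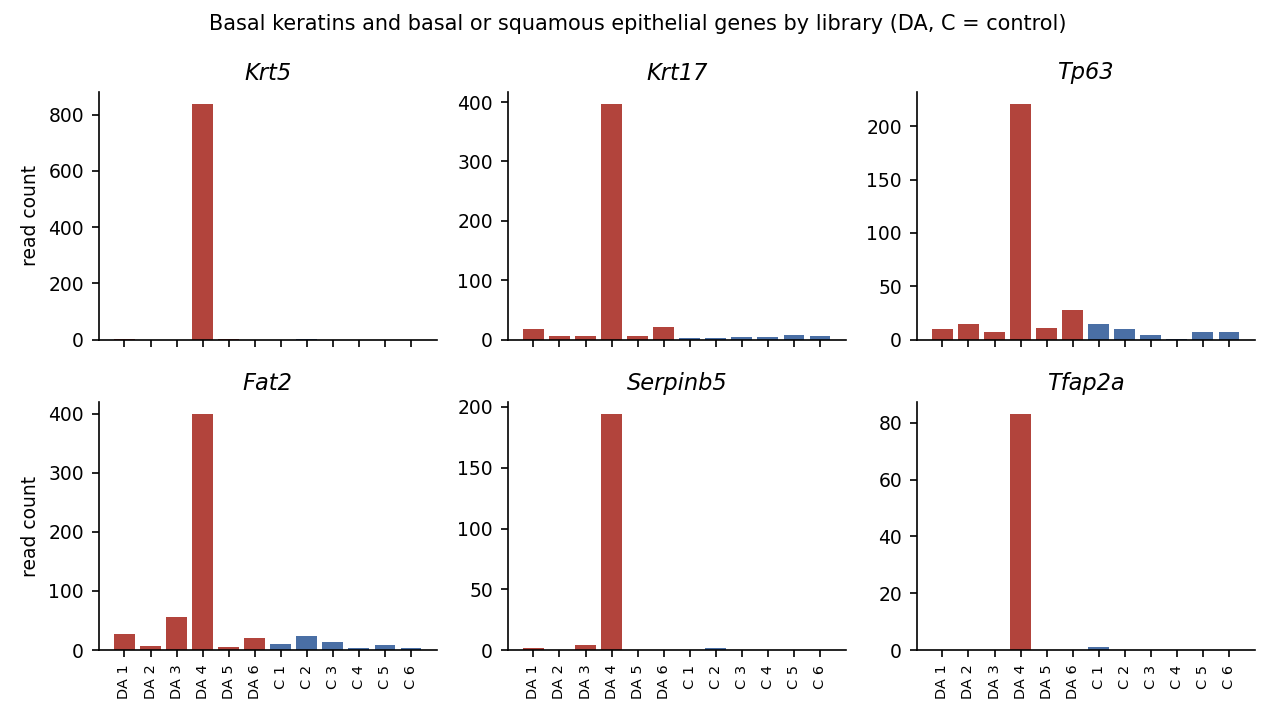
Read counts (y axis, from 0) of Krt5, Krt17, Tp63, Fat2, Serpinb5 and Tfap2a in each library, with DA libraries in red and control libraries (C) in blue. In every panel the bar of DA replicate 4 is the tallest, at 839 reads for Krt5 and 397 for Krt17. Fat2, Serpinb5 and Tfap2a were picked after their values were seen, so their panels are not separate evidence.

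Thymus epithelium also carries basal keratins, so its markers were read beside these values. Foxn1, which defines it, had 0 reads in all libraries. Pax1, a transcription factor of thymus epithelium and skeletal precursors, had 13 reads in DA replicate 4, at most 7 in the remaining DA libraries and at most 10 in control libraries. The summed marker level was 7.31 to 16.1 CPM in DA libraries (13.8 CPM in DA replicate 4) and 8.47 to 11.6 CPM in control libraries, but most of it was Cldn3, a claudin of many epithelia (11.5 CPM in DA replicate 4). The thymocyte genes Rag1 and Dntt had 39 and 42 reads in DA replicate 4, against at most 2 and 11 reads in each other library. The summed level of 8 thymocyte genes was 41.0 CPM in DA replicate 4 and 20.3 to 24.8 CPM in the remaining DA libraries. In control libraries it was 32.4 to 51.5 CPM, so the sum in DA replicate 4 lay within the control range. Of the 8 genes, 6 had their highest DA value in DA replicate 4 and 0 their lowest. Of 3 tested, edgeR called 0 higher and 1 lower in DA, beside 8.45% and 7.51% of all tested genes. Their median log2 fold change was -0.88. Psmb11 has no row of that name. Summed ciliated cell markers stood at 923 CPM in DA replicate 4 and 951 CPM in DA replicate 3. The remaining DA libraries had 363 to 472 CPM, and control libraries 215 to 457 CPM. The part of other cell types in the Krt5 and Krt17 reads was not tested beyond these values.

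Squamous keratins gave no call in either direction among 8 tested rows, beside 16% of all tested genes. At an unadjusted p under 0.05, 1 was higher and 1 was lower by edgeR, DESeq2 called 1 higher and 0 lower, and limma called none. Krt80, a type II keratin spread over many epithelia, and Krt79, a keratin of skin and glands, were the abundant members. Krt80 had 37.0, 76.9 and 91.0 CPM (lowest, median, highest) in DA and 44.1, 86.4 and 151 CPM in control libraries, with wide overlap (log2 fold change -0.29 ± 0.32, adjusted p = 0.561). Control replicates 3, 4 and 5, all without Y-linked reads, were the 3 highest, at 151, 119 and 115 CPM. Krt79 had 27.0, 48.0 and 87.0 CPM in DA and 53.5, 73.4 and 110 CPM in control libraries. Of the DA libraries, 4 lay below the lowest control, and the log2 fold change was -0.54 ± 0.27 (adjusted p = 0.178).

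Krt77, a type II keratin of skin, had the largest fitted change of the tested rows, and it was uneven. It read 25, 23, 180, 7, 13 and 36 counts in DA replicates 1 to 6, against 10, 17, 14, 0, 10 and 3 counts in control replicates 1 to 6. DA replicate 3 stood far above the rest. By CPM, DA replicates 1, 2, 3 and 6 exceeded all controls, and DA replicates 4 and 5 lay within the control range. The log2 fold change of 2.34 ± 0.84 was not called by edgeR (adjusted p = 0.0708). It was called by DESeq2 (adjusted p = 0.0245) and without DA replicate 4 (log2 fold change 2.57, adjusted p = 0.0391). Without DA replicate 3 it was 1.19 (adjusted p = 0.243).

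Krt2, a keratin of the upper epidermis, was at 0.829, 2.09 and 3.66 CPM (lowest, median, highest) in DA and 1.64, 5.38 and 7.49 CPM in control libraries. All DA libraries were below the control mean, and the log2 fold change of -1.05 ± 0.43 was not called (edgeR adjusted p = 0.103). Krt76, a keratin of the palate, ranged over 3.46 to 10.5 CPM in DA, against 20.7 and 15.3 CPM in control replicates 1 and 2 and 2.18 to 4.93 CPM in control replicates 3 to 6. Its direction differed between the strata, with a log2 fold change of -1.41 among libraries with Y-linked reads and 0.99 among those without, and it was not called overall (-0.28, adjusted p = 0.754). Krt1 and Krt10, the pair of suprabasal epidermis, had log2 fold changes of -0.60 (adjusted p = 0.465) and 0.31 (adjusted p = 0.474). Krt1 was lower in libraries with Y-linked reads (-1.80) and higher in those without (0.71), uncalled in both.

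Krt4, a keratin of oesophagus and other moist stratified epithelium, ranged over 0.255 to 4.32 CPM in DA and 0 to 3.34 CPM in control libraries. Its highest values were in DA replicate 3 and control replicate 1, and the log2 fold change was 0.35 ± 0.89 (adjusted p = 0.818). Without DA replicate 3 that value was -0.54 (adjusted p = 0.711). Krt13, the type I partner of Krt4, was below the filter. It had 22, 9, 11, 19, 7 and 16 reads in DA replicates 1 to 6, against 4, 7, 5, 10, 14 and 0 reads in control replicates 1 to 6. DA replicates 1, 4 and 6 exceeded all controls. Krt78 had at most 15 reads and Krt12, of the cornea, at most 9. Injury-type Krt6a had 1 read in all, in DA replicate 4, on 1 of its 2 rows, and Krt16 has no row of that name.

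Several genes of the cornified envelope, which forms where squamous keratins are made, were absent or nearly so. Ivl, Sprr1b, Sprr3 and Cnfn had 0 reads in all libraries and Sprr1a had 5 reads in DA replicate 4 and 0 elsewhere. Krtdap and Flg have no rows of those names. Of 7 tested genes of the list 0 were called higher and 0 lower, beside 8.45% and 7.51% of all tested genes. The median log2 fold change of the 7 was -0.36. At an unadjusted p under 0.05, 0 were higher and 2 were lower by edgeR, and DESeq2 called 2 lower and limma 0. The envelope cross-linking enzyme gene Tgm1 had 15.5 ± 6.22 CPM in DA and 19.8 ± 5.40 CPM in control (SD, n = 6; log2 fold change -0.36, edgeR adjusted p = 0.349). Sbsn, a secreted protein of suprabasal cells, was at 1.06 CPM in DA and 1.10 CPM in control (log2 fold change -0.05, adjusted p = 0.934).

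Hair and root sheath keratins were at or near the detection limit. Krt75, a keratin of the follicle's companion layer, was the only one of 23 rows to pass the filter. It had 1.08, 2.53 and 3.58 CPM (lowest, median, highest) in DA and 3.19, 3.65 and 4.85 CPM in control libraries. Of the DA libraries, 5 lay below every control, and DA replicate 2 lay among them. The log2 fold change of -0.64 ± 0.25 was not called (edgeR adjusted p = 0.0971) but was called without DA replicate 2 (-0.79, adjusted p = 0.0451). Below the filter, Krt28 reached 13 reads, Krt36 11 reads, in DA replicate 4, and Krt81 11 reads, in control replicate 5. A further 14 hair keratin rows had at most 6 reads in any library. Those with 0 reads in all 12 libraries were Krt32, Krt34, Krt35, Krt84 and Krt85, and outside the hair class Krt9 and the second Krt6a row. All 22 hair rows below the filter summed to 12 to 26 reads per DA library and 7 to 29 reads per control library.

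**Figure D4:**
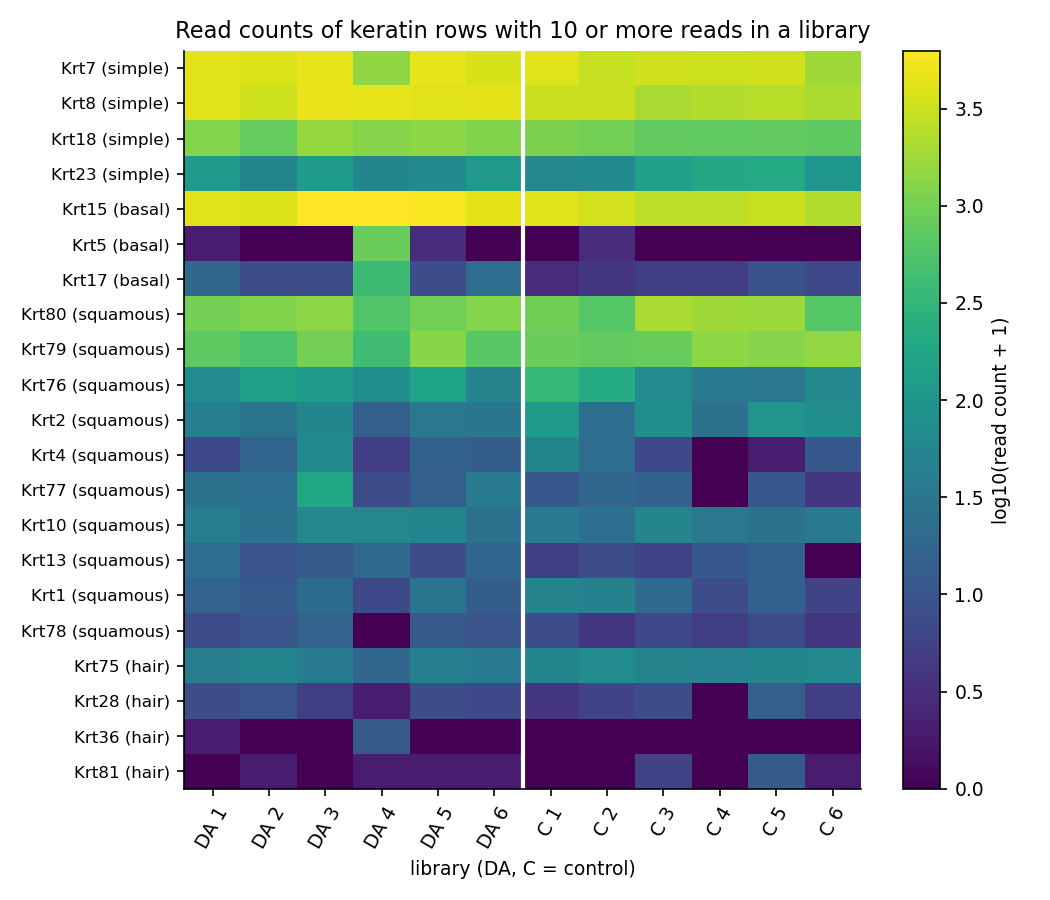
Read counts, as log10(count + 1) in colour, of the 21 keratin rows with at least 10 reads in some library (rows, with class) in each DA and control (C) library (columns). Krt7, Krt8, Krt18, Krt15, Krt80 and Krt79 are bright throughout, while Krt5 and Krt17 are bright only in DA replicate 4.

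Keratin reads as a whole made up 0.0980% to 0.132% of a DA library and 0.0671% to 0.0936% of a control library. Within them, simple keratins took 45.9% to 60.7% in DA and 50.1% to 57.0% in control libraries. Rows listed as basal, mostly Krt15, took 26.7% to 30.8% in DA replicates 1, 2, 3, 5 and 6 and 46.4% in DA replicate 4. In control libraries they took 21.3% to 28.1%. The basal label of the Krt15 row is uncertain, so these are not shares of basal cell keratins. Krt5 and Krt17 together held 1236 reads in DA replicate 4, 7 to 22 in each other DA library and 2 to 8 in each control library. Squamous keratins, mostly Krt80 and Krt79, took 7.38% in DA replicate 4 and 12.3% to 14.3% in the other DA libraries. In control replicates 1 and 2 they took 15.9% and 14.2%, and in control replicates 3 to 6, which lack Y-linked reads, 24.2% to 26.7%. Hair keratins took 0.263% to 0.460% in DA and 0.414% to 0.688% in control libraries. These shares add up to a whole, so a rise of 1 class lowers the others. Summed over genes, type I keratins came to 86.9 ± 16.4 FPKM in DA and 58.4 ± 8.33 FPKM in control, and type II keratins to 188 ± 21.1 and 153 ± 17.5 FPKM (SD, n = 6 each). Both sums leave out keratins with no row of their name, Krt14, Krt16 and Krt19 of type I among them. In the type I sum, Krt15 was scaled by a length greater than its whole RefSeq gene. The balance of type I to type II cannot be read from these sums.

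**Figure D5:**
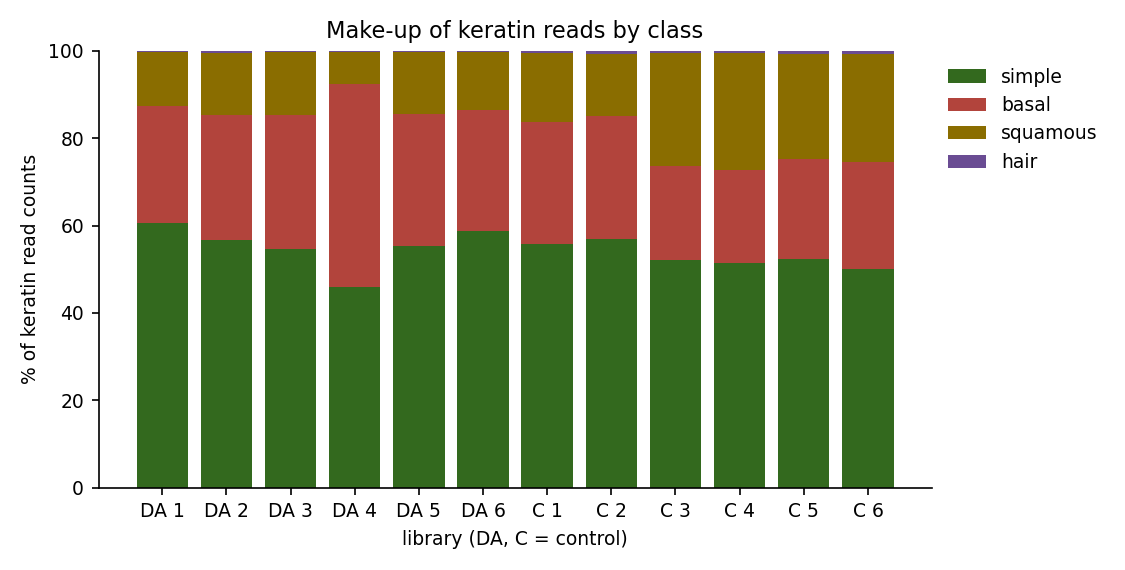
Share of keratin read counts (y axis, %) by class in each DA and control (C) library, with Krt222 left out for its 35 reads in all. Rows listed as basal, mostly Krt15, whose basal label is uncertain, take 46.4% in DA replicate 4. Squamous keratins take 24.2% to 26.7% in control replicates 3 to 6.

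Proteins that anchor keratin filaments, and other filaments, were read from fixed lists. Of 15 tested anchor and partner genes 1 was called higher and 1 lower, with a median log2 fold change of 0.07, beside 8.45% and 7.51% of all tested genes. Without DA replicate 4 the counts were 2 and 3. Ywhae, a 14-3-3 adaptor of a family that binds keratins, rose to 576 ± 46.8 CPM in DA, against 397 ± 42.2 CPM in control (log2 fold change 0.54, edgeR adjusted p = 0.00594). Plec, the plectin that links keratins to hemidesmosomes, fell to 414 ± 49.2 CPM in DA, against 608 ± 95.6 CPM in control (-0.55, adjusted p = 0.0147; SD, n = 6 each). The desmosomal anchor gene Dsp was at 205 ± 25.03 CPM in DA and 216 ± 27.0 CPM in control (-0.08, adjusted p = 0.647). Among 8 tested genes of other intermediate filaments, 2 rose (Des and the lamin gene Lmnb2, 0.77, adjusted p = 0.0363) and 1 fell (Synm, synemin of muscle, -0.85, adjusted p = 0.0317), with a median of 0.53. The Lmnb2 call was lost in 8 of 12 single-library omissions, in the model with a term for Y-linked reads (adjusted p = 0.107) and by limma (adjusted p = 0.0737). The Synm call was lost in 5 of 12 and with that term (adjusted p = 0.0519). The muscle filament gene Des rose by 1.97 ± 0.29 (adjusted p = 0.00311), while Vim, the mesenchymal one, had a log2 fold change of -0.02 (adjusted p = 0.962).

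General epithelial genes were read as a gauge of how much epithelium each library held. Of 14 tested, 1 was called higher and 0 were called lower, beside 8.45% and 7.51% of all tested genes, with a median log2 fold change of 0.23. At an unadjusted p under 0.05, 6 were higher and 0 were lower by edgeR. The one called was Esrp1, an epithelial splicing factor (0.43, edgeR adjusted p = 0.0298). Without control replicate 4 its adjusted p was 0.0683, the highest of 6 single-library omissions that ended the call. A model term for Y-linked reads also ended the Esrp1 call (edgeR adjusted p = 0.0779). Cdh1 stood at 335 ± 25.3 CPM in DA and 293 ± 26.7 CPM in control (0.20, edgeR adjusted p = 0.145), and Epcam at 138 ± 26.0 and 119 ± 12.8 CPM (0.21, adjusted p = 0.262; SD, n = 6 each). The summed level of the list was 1038 to 1464 CPM in DA and 956 to 1244 CPM in control libraries. Summed mesothelial markers, whose cells also carry simple keratins, were 257 to 614 CPM in DA and 147 to 387 CPM in control libraries. Their part in the rise of Krt8 and Krt18 was not tested. Of 12 tested keratin gene regulators 1 was called higher and 0 were called lower (median 0.31). The one called was Foxa1, a forkhead factor of airway epithelium (0.80, adjusted p = 0.0228), a call that ended without control replicate 4 (adjusted p = 0.0537) or once the model held a term for Y-linked reads (adjusted p = 0.0637). Of 9 tested club and goblet cell genes 4 rose, and of 8 tested ciliated cell genes 3 rose, with 0 lower in both lists and median log2 fold changes of 1.73 and 1.17, beside 8.45% of all tested genes called higher. These counts moved between fits. In libraries with Y-linked reads alone they were 0 and 0. The model with a term for such reads called 2 in each list. Without control replicate 4 there were 2 club and goblet genes, and without DA replicate 2 there were 6 ciliated genes.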

How the data were processed

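RNA of 12 rat lungs with bronchi was sequenced. Per the submitters' processing notes, the authors aligned reads with HISAT2 2.2.1 to mRatBN7.2 and counted them with HTSeq 2.0.2; strand setting and annotation release are not given in the sources used here. The deposited table holds raw read counts per Ensembl gene, and FPKM values that the authors derived from them with the table's own gene length (largest relative deviation on recomputing 7e-14). Groups followed the labels.

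Counts were tested in R 4.3.3 with edgeR 4.0.16 (filterByExpr, TMM, quasi-likelihood F test, group as the only term, two-sided, Benjamini-Hochberg over 14517 genes), after a check of the script on simulated counts. CPM values are TMM-scaled, and a log2 fold change is DA over control. Keratin classes and gene lists were assigned by symbol; Tp63 and Loricrin were matched through RefSeq synonyms, and some list members are not reported here. Of 54 RefSeq keratin symbols 47 had a row. Named genes were all tested keratins, those with at least 10 counts in a library, and of each list the called members with the smallest adjusted p plus some fixed by name. Members, lists and tests were chosen with earlier results of these data known. Alternatives were DESeq2 1.42.0, limma 3.58.1 on log2(FPKM + 0.5), upper quartile scaling, no count filter, a replicate block, each library left out, and Y-linked reads as a term or stratum; the fit with no filter and without DA replicate 4 was chosen after seeing the data.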

Additional observations from a re-analysis of the deposited data

Results flagged for a closer look

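Single libraries stood apart in 7 of 41 sets of 6 values examined, by the gap of the highest or lowest library to its neighbour over the range (Dixon's test). Chance flags about 1 in 20 such sets of normally spread values. That rate cannot be set against sparse counts, where a set with all but 1 library at 0 is always flagged. In DA replicate 4 they were Krt7, lowest at 93.3 CPM, and Krt5 (53.5 CPM), Krt17 (25.3 CPM) and Krt36 (0.701 CPM, 11 reads), each highest. In DA replicate 3 they were Krt77, highest at 12 CPM, and Krt4, highest at 4.32 CPM. The last was Krt5 in control replicate 2, at 0.143 CPM, which is 2 reads.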

How the results depend on the processing

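Calls of Krt8 and Krt15 held in 19 of 20 alternatives, the exception being libraries with Y-linked reads alone, where 0 keratins and 0 of all genes were called (951 genes higher and 496 lower at an unadjusted p under 0.05 by edgeR). Krt18 held in 11. With no count filter 5 keratins were higher, the added ones being Krt5 and Krt17. Leaving out 1 library at a time gave 2 to 4 keratins higher and 0 to 1 lower. Replicate numbers were not taken to pair the libraries: correlations of same-numbered deviations ran from -0.256 to 0.300, and the own number was highest for replicates 1, 2 and 3 but not for the other 3. With a replicate block 2 keratins were higher, and Krt18 and Esrp1 lost their calls (edgeR adjusted p of 0.0762 and 0.0701). In that fit 1 club and goblet gene was higher, and 677 of all genes were, against 1226 without the block. All genes called higher came to 549 with Y-linked reads as a term, 716 in libraries without such reads and 1888 by DESeq2, and genes called lower to 572 with the term and 1645 by DESeq2. Without 1 library, the lowest counts were 578 higher and 578 lower. Log2 fold changes that turned sign were uncalled. With Y-linked reads alone they were Krt23 0.47, Krt80 0.45, Krt4 -0.69, Aqp3 2.55 and Vim 0.20. In libraries without them they were Krt76 0.99, Krt10 -0.0227, Krt1 0.71, Ngfr -0.0901, Aqp3 0.00459, Tgm1 0.22, Sbsn 0.0142, Dsp 0.11, Vim 0.0482, Cav1 0.24, Clic5 0.26, Sftpc 0.29 and Prss16 0.0367. With the replicate block they were Krt76 0.12 and Aqp3 0.51, by limma Krt76 0.0383 and Aqp3 0.32, with Y-linked reads as a term Aqp3 1.17, Sbsn 0.0149 and Vim 0.13, and by upper quartile scaling Sbsn 0.00795 and Vim 0.0405. Over all fits without 1 library the values ran from -0.48 to 0.22 for Krt76, -0.54 to 1.22 for Krt4, -0.12 to 0.54 for Ngfr, -0.54 to 0.35 for Aqp3, -0.17 to 0.11 for Sbsn, -0.0987 to 0.0752 for Vim, -0.18 to 0.0943 for Cav1, -0.26 to 0.0712 for Clic5, -0.15 to 0.098 for Sftpc, and -0.0492 to 0.21 for Sftpa1. The cause was not tested. Keratins with few reads are limited by depth.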
